A study of Mus musculus with 4 samples.

Results

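NADPH supply in the injured kidney was described through 8 genes, chosen by gene name from the deposited table: Pgls, Pgd, Rpia, Tkt and Taldo1 of the pentose phosphate pathway, and Me1, Idh2 and Nnt outside it. The table held 54078 features, and the 8 genes took 9 rows of it because Nnt is listed in 2 of them. Of the 8 genes, 7 passed the filter on low values and were tested among 15414 genes.

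RNA-sequencing was performed on 4 pools of kidney RNA, each from 3 male mice, collected at day 3 after both kidneys were clamped for 30 min (bilateral ischemia-reperfusion, bI/R 3D). The 2 KO pools came from adult mice without Apela, which encodes the peptide hormone Elabela, in renal tubular cells (Apela Ksp KO). The 2 WT pools came from their age-matched littermates. Both groups carried the floxed Apela alleles (Apela flox/flox) and differed in Cre, which was driven by the Ksp-cadherin promoter of tubular epithelium and was absent from WT mice. The deletion was therefore limited to cells that use this promoter, while RNA came from the whole kidney. All 4 pools were injured, so no value here compares injured with uninjured kidney. The age in weeks was not given for these mice. The labels give the strain as C57BL/6 x 129S4/SvJae, and the study's methods give a C57BL/6 background. The design text of the series names adipose tissue, while title and labels name kidney. Kidney tubule markers were abundant, with the proximal tubule list summing to FPKM of 1572 to 2417 a pool. The 7 adipocyte markers summed to 11.7 to 22.9, of which Fabp4, also made by endothelial cells, gave 10.2 to 14.6. Ucp1 was at 0 in every pool and Adipoq in all but KO replicate 2, where it had 6 reads. Between 16045724 and 16927742 reads a pool lay on genes. FPKM (fragments scaled by gene length and library size) of Apela was 5.27 and 4.57 for WT, and 0.536 and 0.245 for KO. A pool is the unit of replication (n = 2 a group), and nothing states whether the pools of a group were operated or extracted separately.

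NADPH is the cell's main carrier of reducing power for biosynthesis and for renewing glutathione and thioredoxin, which detoxify peroxides formed when blood returns to an ischemic kidney. The oxidative branch of the pentose phosphate pathway makes NADPH from glucose 6-phosphate, and the non-oxidative branch exchanges carbon between pentoses and the intermediates of glycolysis. Malic enzyme 1 in the cytosol and isocitrate dehydrogenase 2 and the transhydrogenase in mitochondria produce NADPH by other routes, and proximal tubule cells also need it for the reductive steps of drug metabolism.

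The promoters were read first, because genes of NADPH supply are textbook targets of NRF2, which binds the antioxidant response element. RefSeq windows of GRCm38.p6, from 250 bases before to 50 bases after the start site, were found for 7 of the 8 genes, all but Nnt. Shown here are the window with an antioxidant response element core (TGACNNNGC, searched on both strands), that of Me1, and, for comparison, the windows of Pgd and Taldo1, which had none but had CCAAT boxes. Each is printed 5′ to 3′ on the strand of its gene, and capitals mark the core in the window of Me1 and the CCAAT box (CCAAT, read on either strand) in those of Pgd and Taldo1. The windows are chr9:86695865-86696164 (minus strand) for Me1, chr4:149166656-149166955 (minus strand) for Pgd and chr7:141391910-141392209 (plus strand) for Taldo1.
Me1: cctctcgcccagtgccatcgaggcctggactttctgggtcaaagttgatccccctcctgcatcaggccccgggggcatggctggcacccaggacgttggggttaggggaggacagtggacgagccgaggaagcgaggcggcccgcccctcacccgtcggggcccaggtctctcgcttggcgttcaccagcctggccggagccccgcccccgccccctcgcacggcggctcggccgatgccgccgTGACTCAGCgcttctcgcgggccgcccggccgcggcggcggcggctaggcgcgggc
Pgd: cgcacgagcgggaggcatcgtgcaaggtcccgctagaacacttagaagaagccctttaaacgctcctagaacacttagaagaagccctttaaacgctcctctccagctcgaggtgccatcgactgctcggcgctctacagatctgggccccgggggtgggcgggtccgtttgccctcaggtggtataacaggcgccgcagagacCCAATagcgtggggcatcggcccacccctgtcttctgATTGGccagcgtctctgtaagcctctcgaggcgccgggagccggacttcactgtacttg
Taldo1: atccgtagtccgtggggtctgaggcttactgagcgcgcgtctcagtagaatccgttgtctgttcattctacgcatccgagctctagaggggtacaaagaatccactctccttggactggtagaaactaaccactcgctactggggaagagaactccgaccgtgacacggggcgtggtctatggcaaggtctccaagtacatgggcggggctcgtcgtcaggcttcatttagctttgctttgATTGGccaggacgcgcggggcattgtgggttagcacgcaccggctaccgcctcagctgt

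The core was present in 1 of the 7 windows and in 12.4% of the 32851 promoter windows of the reference table. The match in Me1 lay on the strand of the gene, with its first base 6 bases before the start site. The CCAAT box was present in 3 of the 7 windows, Pgd, Taldo1 and Idh2, and in 37.4% of all windows. Pgd held it 46 and 9 bases before the start site, once on each strand. The GC box (GGGCGG, both strands, overlaps counted) was present in 7 of 7 windows, with 15 matches, and in 35.7% of all windows. The E-box CACGTG, read the same on both strands, was in none of the 7 and in 7.15% of all. The 7 windows had a median GC content of 61.0% against 52.7% over all windows. A match is a string of letters in one window of one start site, and for Tkt that site lay 772 bases inside the gene's 5′ end in the table. In the pools, the groups overlapped for Me1, the gene with the core. Of the 6 genes without it in their window, the groups overlapped for Rpia and Idh2 and were separate for Pgls, Pgd, Tkt and Taldo1. Sequence outside the windows was not searched, so a gene without a core here may hold one elsewhere. Any role of NRF2 in these values was not tested.

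Across the 7 tested genes, the KO pools both exceeded the WT pools for 4, namely Pgls, Pgd, Tkt and Taldo1. This is 57.1% of them, beside 19.7% of all genes tested. Both KO pools were under both WT pools for 0 of the 7, beside 18.1% of all genes, and the groups overlapped for Rpia, Me1 and Idh2. With limma on log2(FPKM + 0.5) and Benjamini-Hochberg adjustment over all genes tested, 0 of the 7 passed an adjusted p of 0.05, as did 0% of all genes, and limma with voom weights also gave 0. At an unadjusted p under 0.05, Pgls alone of the 7 was higher in the KO pools, beside 3.29% of all genes, and 0 were lower, beside 3.03%. Pgls was above this p without WT replicate 2 (limma, unadjusted p = 0.0566) and without KO replicate 1 (limma, unadjusted p = 0.0786). The median log2 fold change was 0.22 over the 7 genes and 0.0071 over all genes tested. With quantile normalization the median of the 7 was 0.14, and 3 of them were above (without Pgd), beside 18.2% of all genes. With no filter, which adds Nnt, the median was 0.13. So the KO pools exceeded the WT pools without overlap in 4 of the 5 pentose phosphate genes and overlapping pools in Rpia and in the other NADPH producers, and none of these differences passed the test over all genes. With 2 pools a side, the smallest two-sided p of an exact permutation test is 0.333. In whole-kidney RNA, fewer cells of a type and less RNA per cell cannot be told apart.

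**Figure D1:**
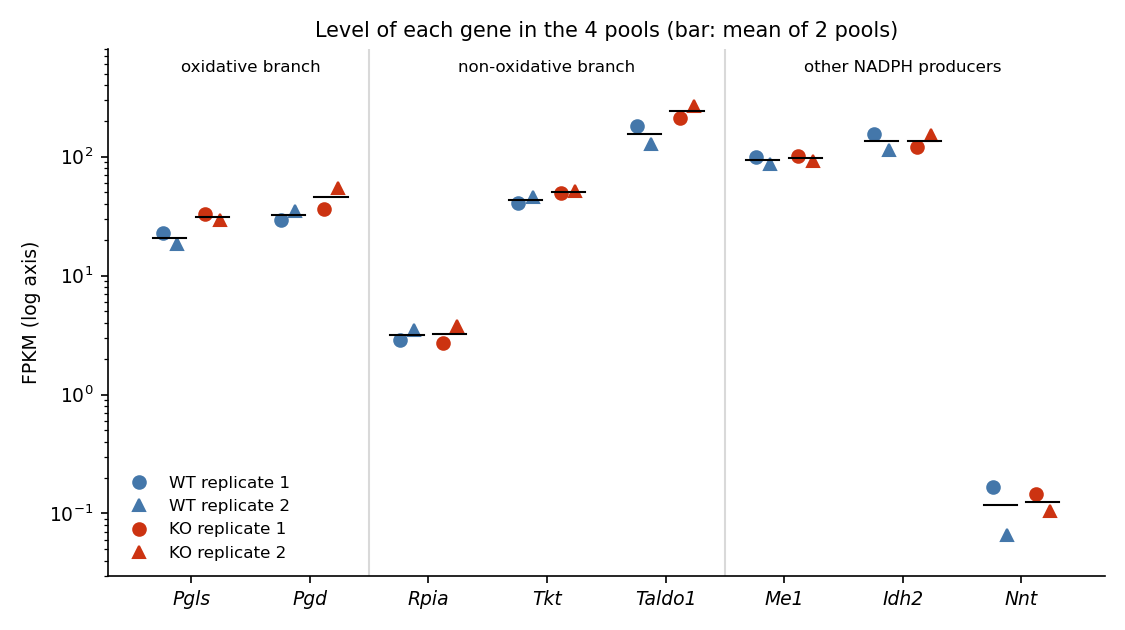
FPKM on a log axis of each of the 8 genes in the 4 pools, with WT in blue, KO in red, circles for replicate 1, triangles for replicate 2 and bars at the mean of 2 pools; of the 2 rows of Nnt, the one with reads is drawn. The red points lie above the blue ones for Pgls, Pgd, Tkt and Taldo1, and Nnt lies below 0.2 FPKM in every pool.

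Pgls encodes 6-phosphogluconolactonase, which opens the lactone formed in the first oxidative step (ENSMUSG00000031807; chromosome 8 from 71592176 to 71601092, plus strand). In FPKM, the pools gave 22.8 and 18.4 for WT and 32.9 and 29.1 for KO. The lower KO pool was above the higher WT pool, and replicate 1 was the higher pool in both groups. The means were 20.6 ± 3.09 (SD, n = 2) and 31.0 ± 2.72 (SD, n = 2). Its log2 fold change of 0.58 (standard error 0.15, 95% interval 0.17 to 0.99) had the smallest p of the 7 genes (limma, unadjusted p = 0.0151, Benjamini-Hochberg adjusted p = 0.760). The gene shares 776 exon bases (20.6%) on the same strand with Fam129c. How reads in such bases were assigned was not given in the sources used here.

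Pgd encodes 6-phosphogluconate dehydrogenase, which forms NADPH in the last step of the oxidative branch (ENSMUSG00000028961; chromosome 4 from 149149991 to 149166771, minus strand). FPKM came to 29.1 and 35.0 (WT) and 36.0 and 55.0 (KO). KO replicate 2 stood apart, while KO replicate 1 was close to WT replicate 2. Its log2 fold change came to 0.47 (standard error 0.24, 95% interval -0.16 to 1.11; limma, Benjamini-Hochberg adjusted p = 0.797), and leaving out a KO pool gave 0.17 (replicate 2) or 0.78 (replicate 1). With quantile normalization its groups overlapped, at a log2 fold change of 0.40. FPKM summed over Pgls and Pgd was 51.9 and 53.4 for WT against 68.9 and 84.0 for KO. The groups were separate for each of these genes, so their sum had to be separate and adds no further evidence.

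Rpia encodes ribose-5-phosphate isomerase, which joins the oxidative branch to ribose 5-phosphate, the sugar of nucleotides (ENSMUSG00000053604; chromosome 6 from 70765720 to 70792232, minus strand). WT kidneys had 2.89 and 3.50 FPKM and KO kidneys 2.69 and 3.79 FPKM. The KO pools lay on either side of the WT pools. It was the least abundant of the 7 tested genes, with 241 to 330 reads a pool. The change on the log2 scale was 0.0058 (standard error 0.20, 95% interval -0.53 to 0.54; limma, Benjamini-Hochberg adjusted p = 0.997), an interval that holds the change seen in Pgd.

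Tkt encodes transketolase, which moves carbon pairs between sugar phosphates (ENSMUSG00000021957; chromosome 14 from 30548359 to 30574720, plus strand). In FPKM, the pools gave 41.0 and 46.1 for WT and 49.9 and 51.6 for KO. The pools within a group were close together, and the gap between the groups was small but without overlap. The log2 fold change was 0.22 (standard error 0.12, 95% interval -0.11 to 0.55; limma, Benjamini-Hochberg adjusted p = 0.798), the smallest of the 4 genes with separate groups, and it was 0.14 both without WT replicate 1 and with quantile normalization.

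Taldo1 encodes transaldolase, the partner of transketolase (ENSMUSG00000025503; chromosome 7 from 141392199 to 141402968, plus strand). FPKM came to 183 and 127 (WT) and 212 and 268 (KO). WT replicate 2 was low and KO replicate 2 high, and the groups did not overlap. The means were 155 ± 39.3 (SD, n = 2) and 240.1 ± 39.9 (SD, n = 2), a ratio of 1.55. The log2 fold change was 0.64, the largest of the 7 (standard error 0.25, 95% interval -0.011 to 1.30; limma, unadjusted p = 0.0525, Benjamini-Hochberg adjusted p = 0.785). It was 0.38 without WT replicate 2. Summed over Rpia, Tkt and Taldo1, FPKM was 226.6 and 176.8 for WT against 264.5 and 323.7 for KO. The share of Pgls and Pgd in the FPKM of these 5 pathway genes was 18.6% and 23.2% for WT against 20.7% and 20.6% for KO, inside the WT range. The size of this share depends on the exon length by which FPKM divides, and no other length was tried for it.

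Me1 encodes cytosolic malic enzyme, which forms NADPH while turning malate into pyruvate (ENSMUSG00000032418; chromosome 9 from 86581371 to 86695953, minus strand). WT kidneys had 100.1 and 86.9 FPKM and KO kidneys 101.3 and 92.1 FPKM. The groups overlapped, with replicate 1 the higher pool in both. Between the groups, the log2 fold change was 0.050 (standard error 0.15, 95% interval -0.33 to 0.43; limma, Benjamini-Hochberg adjusted p = 0.960).

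Idh2 encodes the mitochondrial, NADP-dependent isocitrate dehydrogenase (ENSMUSG00000030541; chromosome 7 from 80094846 to 80115392, minus strand). In FPKM, the pools gave 156 and 115 for WT and 121 and 152 for KO. The WT pools enclosed the KO pools. Its log2 fold change was 0.022 (standard error 0.22, 95% interval -0.57 to 0.61; limma, Benjamini-Hochberg adjusted p = 0.990), an interval that holds the change seen in Pgls.

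**Figure D2:**
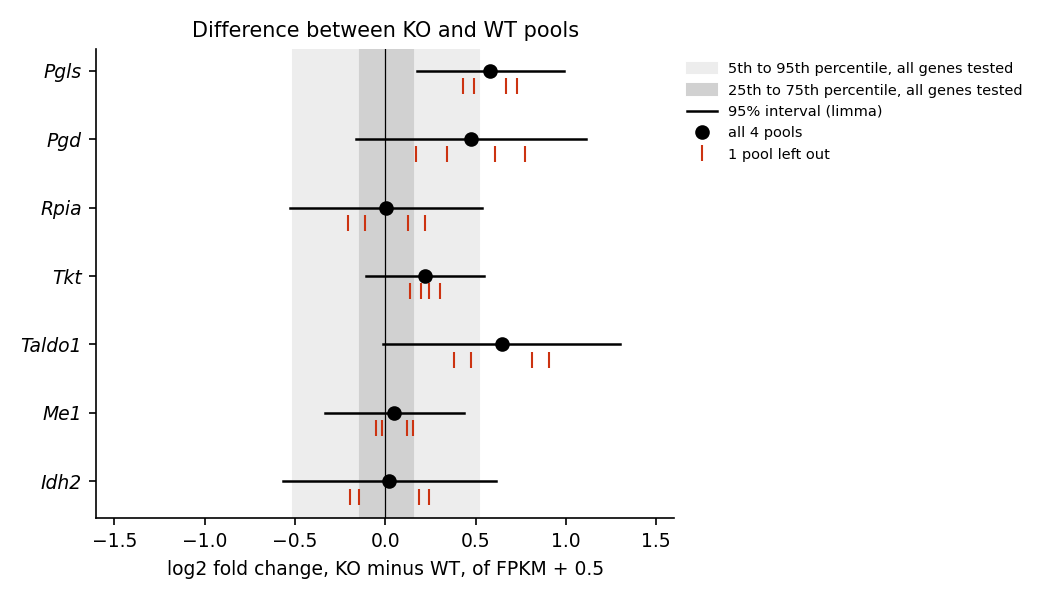
Log2 fold change (KO minus WT, of FPKM + 0.5) of the 7 tested genes on the x axis, with points for all 4 pools, black lines for limma's 95% interval, red ticks for each pool left out, and grey bands for the 5th to 95th and 25th to 75th percentiles of all genes tested. The points of Taldo1 and Pgls lie beyond the 95th percentile of 0.52, and the ticks of Rpia, Me1 and Idh2 fall on both sides of 0.

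Set against all tested genes, the log2 fold change of Taldo1 was larger than that of 96.8% of genes, of Pgls 96.1%, of Pgd 94.2% and of Tkt 81.9%. Those of Me1, Idh2 and Rpia were near the middle, at 58.3%, 53.1% and 49.8%. The middle range of all genes, from the 25th to the 75th percentile, ran from -0.14 to 0.15. KO replicate 2 was the highest pool for 4 of the 7 (Pgd, Rpia, Tkt and Taldo1), beside 25.2% of all genes tested, and WT replicate 2 the lowest for 4 (Pgls, Taldo1, Me1 and Idh2), beside 30.7%. Taldo1 alone of the 7 showed both, beside 11.3% of all genes. The median deviation of the 7 genes from their own means over the 4 pools, on the log2 scale, was -0.12 and -0.13 for WT, and 0.087 and 0.20 for KO.

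By level, the genes ran from Taldo1 through Idh2, Me1, Tkt, Pgd and Pgls to Rpia. Taldo1 ranked 187 of 15414 tested genes by mean FPKM, Idh2 323 and Me1 509, so these 3 were among abundant transcripts of the injured kidney, while Rpia ranked 9624. The ranges over pools did not overlap between Idh2 and Me1, between Me1 and Tkt, or between Pgls and Rpia. Taldo1 and Idh2 overlapped in range, although Taldo1 was the higher in each of the 4 pools. Tkt and Pgd, and Pgd and Pgls, also overlapped. FPKM divides by the length of all annotated exons of a gene, which for Pgd was 6447 bases where its longest coding transcript has 2218. Scaled to the longest coding transcript, mean FPKM was 315 for Taldo1, 202 for Idh2, 113 for Pgd, 111 for Me1, 108 for Tkt, 91.6 for Pgls and 9.43 for Rpia. Pgd thus moved from rank 5 to rank 3, and the order of Pgd, Me1 and Tkt depended on the length used.

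Nnt encodes the inner-membrane transhydrogenase that makes mitochondrial NADPH from NADH, and the C57BL/6J substrain is known to carry a deletion within it, so its level would bear on the strain of these mice. The table lists it in 2 rows. The longer gene model (ENSMUSG00000025453; chromosome 13 from 119335448 to 119408997, minus strand) had an FPKM of 0.168 and 0.0661 for WT, and 0.144 and 0.105 for KO. These values rest on 19, 8, 17 and 12 reads in WT replicates 1 and 2 and KO replicates 1 and 2, and the groups overlapped. The shorter model (ENSMUSG00000116207; from 119335528 to 119408952, same strand) was listed at 0 in all 4 pools.

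In the GENCODE M21 annotation, which places both models as the table does, all 3339 exon bases of the shorter model lie in exons of the longer one, where they make up 47.4% of 7037 bases. Across the table, of 167 protein-coding models that share at least 95% of their exon bases with another gene on the same strand, 148 (88.6%) were at 0 in all 4 pools and 0 had a mean FPKM of at least 0.5. Of 20290 models that share none, 4442 (21.9%) were at 0 and 11756 reached 0.5. Of 239 models that share 30% to 70%, as the longer Nnt model does, 34 (14.2%) were at 0 and 111 reached 0.5. Zeros were thus frequent among models wholly or nearly inside another gene, as the shorter Nnt model is, and made up a smaller share among models that share part of their bases. The longer model shares part of each of its 17 blocks. Its unshared bases lie mostly where it extends a block, with widths of 1594 against 88, 1357 against 218 and 1010 against 82 bases. Whether other models that share 30% to 70% do so in this way was not looked at. Whether the overlap lowers the row of the longer model was not tested. Both rows were under the filter and got no test, and reads per exon, which the deletion would concern, were not analysed here.

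**Figure D3:**
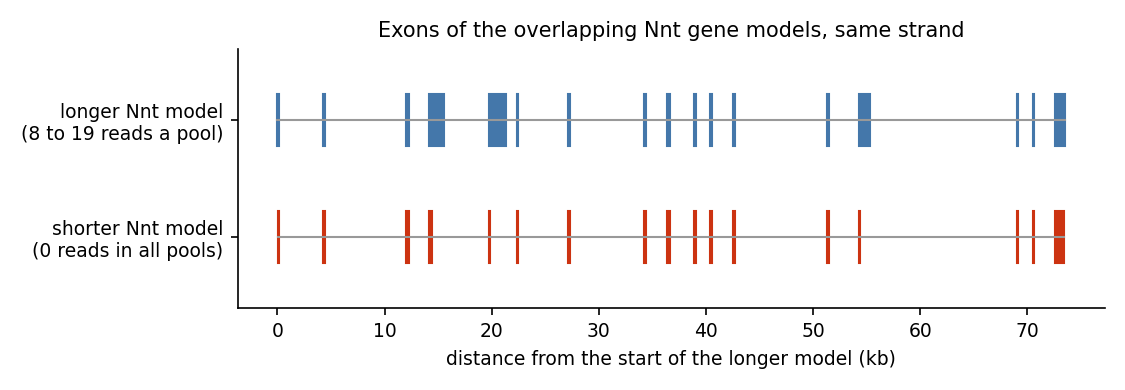
Exons of both Nnt gene models drawn to scale by distance in kb from the 5′ end of the longer model, which is its highest coordinate, at the left. Both have 17 exon blocks, each block of the shorter model (red, 0 reads in all pools) lies inside one of the longer model (blue, 8 to 19 reads a pool), and 3698 exon bases are in the longer model alone.

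Other genes that touch the same cofactor were counted by role. Of 11 other pentose phosphate genes, 7 were tested and 0 passed, with the KO pools wholly above the WT pools for 1 and wholly below for 1 (14.3% each, beside 19.7% and 18.1% of all genes tested), and a median log2 fold change of 0.046. Tktl2 and Prps1l1 were at 0 in all pools. H6pd, which runs the oxidative steps inside the endoplasmic reticulum, was the most abundant and had the largest change. Its FPKM was 101 and 111 (WT) and 147 and 128 (KO), with a log2 fold change of 0.37 (standard error 0.15; limma, Benjamini-Hochberg adjusted p = 0.787). Its groups did not overlap. Prps1, which makes the nucleotide precursor PRPP from ribose 5-phosphate, was 14.4 and 14.6 against 11.7 and 13.7 FPKM, a log2 fold change of -0.19 with both KO pools below. Shpk, the sedoheptulose kinase, was 8.73 and 5.69 against 7.33 and 9.33, and Dera, the deoxyribose-phosphate aldolase, 7.46 and 5.61 against 5.66 and 8.96 FPKM in WT and KO pools. The groups overlapped for both, with log2 fold changes of 0.21 and 0.13.

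Of 11 other genes that form NADPH or NADP, 10 were tested and 0 passed, with 2 above and 1 below (20% and 10%, beside 19.7% and 18.1% of all genes) and a median of 0.11. Glud1, mitochondrial glutamate dehydrogenase, which can use NADP, was the most abundant and had the largest log2 fold change, 0.73 (standard error 0.42; limma, Benjamini-Hochberg adjusted p = 0.798). FPKM came to 299 and 130 (WT) and 340 and 317 (KO). WT replicate 2 lay far below the other 3 pools, which were close together. Aldh1l2, the mitochondrial folate enzyme that forms NADPH, was 0.755 and 0.767 against 0.319 and 0.493, with a log2 fold change of -0.48. Its cytosolic relative Aldh1l1 was 112 and 71.9 against 108 and 108, with a change of 0.26 and overlapping groups. Mthfd2l, another mitochondrial folate enzyme, was 1.23 and 1.15 against 1.37 and 1.78, with a change of 0.29 and both KO pools above. Nadk2, the mitochondrial NAD kinase, had 0 to 2 reads a pool in its own row and was not tested.

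The 21 genes of enzymes that use NADPH were all tested, and 0 passed. They spread in both directions, with the KO pools wholly above the WT pools for 9 (42.9%) and wholly below for 9 (42.9%), beside 19.7% and 18.1% of all genes tested, and a median log2 fold change of 0.0050. At an unadjusted p under 0.05 (limma), 6 were higher and 2 lower in the KO pools, beside 3.29% and 3.03% of all genes. The 4 with the largest changes were all higher in both KO pools. The list was drawn up with earlier results of these data known. The study had already named Cbr1 and Cbr3 as upregulated from this sequencing, and reported more of both by qPCR and immunoblot. The counts of this list and its largest changes are therefore not independent of those results. Cbr3, a carbonyl reductase, had an FPKM of 17.8 and 8.74 for WT against 85.7 and 79.4 for KO (log2 fold change 2.67, standard error 0.34; limma, Benjamini-Hochberg adjusted p = 0.466). Nqo1, the quinone reductase and a known NRF2 target, was 57.9 and 26.1 against 137 and 158 (1.90, standard error 0.40; limma, adjusted p = 0.677). Cbr1 was 196 and 82.0 against 379 and 362 (1.55, standard error 0.44; limma, adjusted p = 0.764). Blvrb, biliverdin reductase B, was 9.33 and 7.12 against 19.1 and 20.5 (1.23, standard error 0.16; limma, adjusted p = 0.466). In all 4 of these genes WT replicate 2 was the lowest pool, as it was for Taldo1, Pgls, Me1 and Idh2, and for 30.7% of all genes tested. Akr1a1, an aldehyde reductase and the most abundant of the list, was 484 and 410 against 366 and 547, with a log2 fold change of 0.0050 and overlapping groups. The changes of Cbr3, Nqo1, Cbr1 and Blvrb were thus larger than that of any of the 7 tested genes of NADPH supply, whose highest was 0.64.

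**Figure D4:**
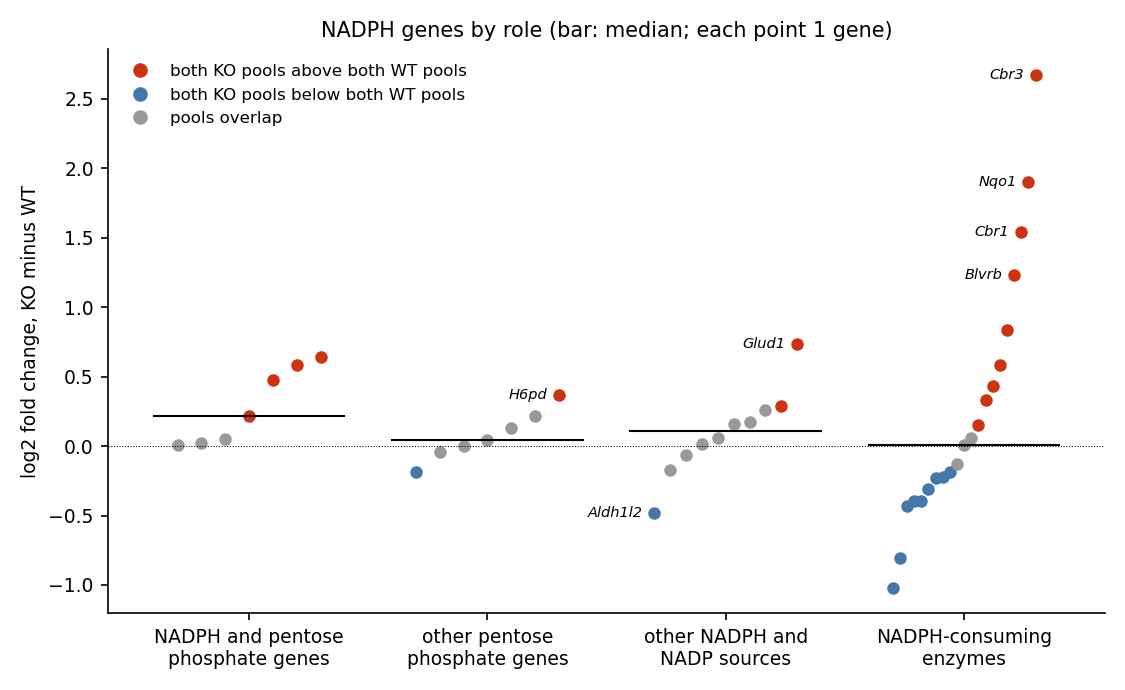
Log2 fold change (KO minus WT) on the y axis of each tested gene in 4 groups by role, with bars at the group medians and colours for the position of the pools. Red points, with the KO pools wholly above the WT pools, number 4 of 7 among the NADPH and pentose phosphate genes, and the NADPH-consuming enzymes reach from -1.02 to 2.67 around a median of 0.0050.

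Cell markers differed between the pools beside these values. Summed FPKM of 10 proximal tubule markers was 2417 and 1799 for WT against 1572 and 2055 for KO, with the KO pools wholly below the WT pools for 4 of them and wholly above for 1, beside 18.1% and 19.7% of all genes tested. The groups overlapped in this sum. The 11 markers of thick limb, distal tubule and collecting duct summed to 1706 and 1177 against 1751 and 1426. Of these 11, 7 were lowest in WT replicate 2, beside 30.7% of all genes tested. The 8 macrophage markers summed to 127 and 294 against 137 and 114. The KO pools were wholly below the WT pools for 2 of them (25%, beside 18.1% of all genes) and wholly above for 0. Of the 8, 7 were highest in WT replicate 2, the pool lowest in Taldo1, Pgls, Me1 and Idh2. The share of all genes highest in that pool was not counted. The 6 endothelial markers summed to 50.3 and 61.6 against 58.0 and 75.2. All 6 were highest in KO replicate 2, as were 4 of the 7 genes of NADPH supply and 25.2% of all genes tested. The KO pools were wholly above the WT pools for 3 of these 6 markers (50%, beside 19.7% of all genes) and below for 0, with a median log2 fold change of 0.24. The 7 adipocyte markers summed to 11.7 and 13.4 against 22.9 and 14.9, and without Cidec the other 6 overlapped at 10.4 and 13.1 against 14.9 and 12.1. Cidec, a lipid droplet protein, was 1.37 and 0.282 against 7.92 and 2.79, a log2 fold change of 2.12 (standard error 0.63; limma, unadjusted p = 0.0220, Benjamini-Hochberg adjusted p = 0.785). The 6 red blood cell markers summed to 128 and 126 against 64.7 and 179. Of 7 injured-tubule markers, 2 were above and 1 below, beside 19.7% and 18.1% of all genes. Those above were Lcn2 (log2 fold change 1.21) and Krt20 (0.73), and the one below was Vcam1 (-1.91). The groups overlapped for the other 4, among them Havcr1 (-0.83), and 0 of the 7 passed (limma, lowest Benjamini-Hochberg adjusted p = 0.545). The 7 cell cycle markers summed to 58.2 and 79.8 against 80.9 and 59.7. The part of these differences in the values of Pgls, Pgd, Tkt and Taldo1 was not tested.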

How the data were processed

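Kidney RNA of 4 pools was sequenced from poly(A) libraries. The authors deposited FPKM per gene with gene positions, lengths and biotypes. The submitters' processing notes name HISAT2 2.0.5 and the builds mm10 and GRCm38.p6, while the counting tool and annotation release are not given in the sources used here. Multiplied by gene length and divided by the smallest such nonzero product in the pool, taken as 1 read, 100% of nonzero FPKM came out as whole numbers (tolerance 0.01), and these recovered reads served for depth (16045724 to 16927742 reads on genes a pool), replicate checks and voom weights. The pools of a group differed beyond sampling noise (chi-square 22.5 per gene for WT, 17.7 for KO). The table had 0 columns of other samples.

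Values were compared as log2(FPKM + 0.5), KO minus WT, two-sided, for 15414 genes whose FPKM averaged at least 0.5, without covariates, in limma 3.58.1 under R 4.3.3 (lmFit, eBayes with a trend), with Benjamini-Hochberg adjustment over all genes tested and the study's threshold, an adjusted p under 0.05 at any fold change. The study names no model. Fold changes on this scale understate those of low genes. Log2 fold changes were tested on simulated data before use. Python 3.11.15 with numpy 2.4.6, scipy 1.17.1, pandas 2.3.3 and matplotlib 3.10.9 was used for the rest. Exon overlaps came from GENCODE M21 and promoters from RefSeq.

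All 8 genes were named, and of each list of related genes the 4 with the largest absolute change and the 1 with the highest mean FPKM. Members and lists were chosen with earlier results of these data known. Of the set as first drawn up, 1 gene is not reported here. The alternatives tried were no filter, a filter at a mean FPKM of 1, pseudocounts of 0.1 and 1, quantile normalization, no trend, the replicate block, voom weights, protein-coding genes only, an unadjusted p and each pool left out. Scaling to transcript length was added after seeing the data. P-values set the difference between the groups against the spread between pools of a group, moderated over all genes. That spread may be partly technical. The number of reads behind a value bears on counting error only.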

Additional observations from a re-analysis of the deposited data

Results flagged for a closer look

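Signal was found on features outside the gene comparisons, on sequence patches of the assembly. Beside 3 reads, taken as the limit of detection in a pool, a feature assembled from the reads with an ATP-NAD kinase domain, the domain of Nadk2, had 346 and 206 reads for WT, and 239 and 364 for KO. The row of Nadk2 itself had 1 and 2 against 1 and 0 reads. The start of this feature on its patch lies 75 bases from the start number of Nadk2. Its FPKM was 5.88 and 3.27 against 3.90 and 6.12, with overlapping groups.

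An assembled feature with a phosphoglucomutase domain, the domain of the gene listed as Pgm2 (ENSMUSG00000025791), which the other pentose phosphate genes include by its symbol, had 63 and 47 reads for WT, and 134 and 220 for KO. Its FPKM was 1.69 and 1.18 against 3.45 and 5.83, and the KO pools were wholly above the WT pools. Its start on the patch lies 30991 bases from the start number of Pgm2. The row of Pgm2 had 0 and 0 against 1 and 1 reads. Whether these features carry the reads of Nadk2 and Pgm2 was not tested. Of the 86 features on patch sequences, 0 had the domain name of any of the 8 genes of NADPH supply.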

How the results depend on the processing

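The number of genes passing the threshold was 0 of those tested, and 0 of the 7 tested genes of NADPH supply, under every alternative except an unadjusted p, which gave 974 genes, Pgls (1 of the 7) among them. With 1 pool left out, the genes under this p numbered 687 to 1720, and those of the 7 were Pgls and Taldo1 without WT replicate 1, none without WT replicate 2, Pgd without KO replicate 1 and Pgls without KO replicate 2. They were 2 with the replicate block (Pgls and Pgd), voom weights or protein-coding genes only (Pgls and Taldo1 in both). The median log2 fold change of the 7 was 0.13 with no filter, which adds Nnt, 0.14 with quantile normalization and 0.30 without WT replicate 2, in a range of 0.17 to 0.30 over the pools left out. With 1 pool left out, the genes with the KO pools above numbered 4 to 6, beside 34.3% to 37.7% of all genes, and those below 0 to 1 (1 without WT replicate 2 and 1 without KO replicate 2), beside 32.0% to 35.9%. With all 4 pools and quantile normalization, 3 were above (without Pgd), beside 18.2%. Pgls (0.43 to 0.73), Pgd (0.17 to 0.78), Tkt (0.14 to 0.30) and Taldo1 (0.38 to 0.90) stayed positive with each pool left out. Their groups were separate with all 4 pools, so the sign could not turn when a pool was dropped and adds no further evidence. For the same reason, the count of genes above could not fall under 4 with 1 pool left out. These 4 genes were also positive under all other alternatives run. The sign turned for Idh2 (-0.089 with quantile normalization, -0.20 without WT replicate 2, -0.14 without KO replicate 2; -0.20 to 0.24 over the pools left out), Me1 (-0.076 with quantile normalization, -0.051 without WT replicate 2, -0.018 without KO replicate 1; -0.051 to 0.15 over the pools left out) and Rpia (-0.0022 with voom weights, -0.11 without WT replicate 1, -0.21 without KO replicate 2; -0.21 to 0.22 over the pools left out). The cause was not tested. With 1 pool left out, limma assumes that the lone pool varies like the other group.

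Same-numbered pools did not deviate together (correlation -0.0017). Whether they share more than a number is not stated in the sources used here. With the replicate block 0 genes passed, 932 had an unadjusted p under 0.05 (974 without it), and the fold changes were the same, such as 0.58 for Pgls (limma, Benjamini-Hochberg adjusted p = 0.746). Rpia rests on 241 to 330 reads a pool and the longer Nnt row on 8 to 19, and 2 pools a group limit every test.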
